A study of Mus musculus with 27 samples.

Results

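The comparison described here set adult against neonatal mice in cells sorted from the ventral tegmental area (VTA): the 3 VTA libraries of postnatal day 60 (P60) against the 3 of postnatal day 7 (P7), 6 of the 27 libraries of the series. The libraries were taken by their labelled region and age. All came from C57/BL6 mice, with no treatment or transgene named in the labels, and each was made by SMART-seq2, which copies polyadenylated RNA of small samples along its whole length. The study followed dopaminergic neuron development in the VTA, in the nucleus accumbens (NAc) and in the compact part of the substantia nigra (SNc) at P7, P30 and P60, from tissue dissociated and sorted by flow cytometry for DAT+ cells. DAT is the dopamine transporter, encoded by Slc6a3. The labels give 5 mice per age and do not tie libraries to mice. The p-values therefore measure the spread between libraries, pooled over the 27 libraries of the series, and that spread may be technical. The sources do not say how DAT+ cells were stained or marked.

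The VTA is a midbrain nucleus whose dopaminergic neurons project to the nucleus accumbens and the prefrontal cortex, and these neurons make dopamine with tyrosine hydroxylase and aromatic amino acid decarboxylase. In the first postnatal weeks, midbrain neurons finish axon growth and build synapses. Over the same weeks microglia, the resident macrophages of the brain, switch from a proliferating neonatal state to a resting adult state marked by genes such as Tmem119 and P2ry12, while blood vessels, astrocytes and myelin mature.

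The libraries held 10090855 to 13109675 reads in genes. Genes with at least 1 read numbered 15438, 16278 and 13954 in the P7 libraries and 18293, 12914 and 18471 in the P60 libraries, so P60 replicate 2 stood apart from the other two. Rank correlations across genes were 0.624 to 0.678 between P7 replicates, 0.835 between P60 replicates 1 and 3, and 0.689 and 0.681 between these and replicate 2. Every replicate pair differed by more than counting noise, with a variance 34.6 to 274.5 times that of counting. The library titles carry one leading number and code in all P7 libraries and another in all P60 libraries, in each region. The labels do not say what these mark, and age and whatever they mark cannot be told apart. Values below are FPKM (reads scaled to gene length and to sequencing depth) rescaled to the same number of reads in genes in every library, fold changes are on log2(value + 1), P60 minus P7, and adjusted p-values are those of limma over all 18888 genes tested.

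Defining dopaminergic markers were low in both ages, with Slc6a3 near 0, against the labelled cell type, and the cells are therefore called sorted VTA cells. Slc6a3 itself was at 0.0263, 0 and 0 in the P7 libraries, where the one value above 0 is a single read, and at 1.79, 2.08 and 0.815 in the P60 libraries (log2 fold change 1.31 ± 0.92 (SE), adjusted p = 0.406). Th was at 0, 0.19 and 0.293 in the P7 libraries and at 2.84, 26.1 and 4.83 in the P60 libraries (log2 fold change 2.87 ± 0.96 (SE), adjusted p = 0.0572). The P60 libraries of both genes lay above those of P7 without passing the test. Under the alternatives Slc6a3 had adjusted p-values of 0.0396 to 0.594 and passed with voom only, and Th had 0.0391 to 0.25 and passed on the deposited scale without P30 replicate 3 and with a filter on the VTA libraries or of 5 in place of 1. Slc18a2, the vesicular monoamine transporter, had values of 1.84, 28.6 and 5.76 at P7 and of 1.1, 3.27 and 1.13 at P60, which overlapped (adjusted p = 0.351). For Ddc, the decarboxylase, the values were 1.22, 3.68 and 0 at P7 and 1.35, 0.387 and 3.37 at P60, also overlapping (adjusted p = 0.936), and the sign of the difference turned without P7 replicate 3 or P60 replicate 3. Nr4a2, a transcription factor of these neurons, stood at 17.2, 15.7 and 9.57 at P7 and at 5.41, 6.89 and 2.35 at P60, lower in each P60 library but short of the threshold (adjusted p = 0.146). Of 24 dopaminergic genes listed, 16 passed the filter on low values and 0 of these passed the test in either direction, beside 9.98% of all genes tested, with a median log2 fold change of 0.03 (limma; 8 had an unadjusted p under 0.05 and 2 passed with voom). Foxa2, En2 and Pitx3 had no read in any of the 6 libraries. Without VTA P7 replicate 3, 2 members passed, both lower (Slc10a4 and Calb1), and without P7 replicate 1 or P60 replicate 3, 1 did (Ret, lower). Without P30 replicate 3, Aldh1a1 passed as higher and Slc10a4 as lower. The summed level of the 24 genes was 32.1 to 83.6 at P7 and 45.2 to 69.1 at P60, against 3992 to 4354 and 18558 to 30708 for 20 genes of resting microglia.

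**Figure D1:**
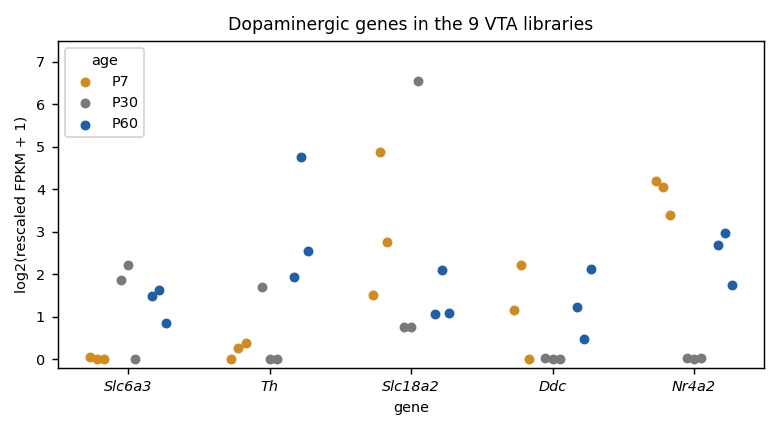
Level of 5 dopaminergic genes in the 9 VTA libraries, as log2 of the rescaled FPKM plus 1 on the vertical axis; each point is 1 library, coloured by age. Slc6a3 stays below 3 on this scale in every library, and Slc18a2 and Ddc overlap between P7 and P60.

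Across all genes, 678 were higher and 1207 lower at P60 than at P7. These are 3.59% and 6.39% of the 18888 genes tested, together 1885 genes or 9.98%, and the groups did not overlap in 25.2% of all genes. Of the 678 genes that rose, 144 had no read in any P7 library, and of the 1207 that fell, 113 had no read in any P60 library. By single library, 269, 239 and 305 of the risen genes had no read in P7 replicates 1, 2 and 3. Of the fallen genes 205, 501 and 183 had none in P60 replicates 1, 2 and 3, and P60 replicate 2 was the lowest adult library in 685. The count of higher genes was 434 without P7 replicate 3, and the count of lower genes was 680 without P60 replicate 2. The counts were 1134 higher and 1556 lower when P30 replicate 3, which enters only through the shared estimate of spread, was left out. Higher genes made up 35.97% of all called genes, 42.16% without P30 replicate 3, 51.86% on the deposited scale without P30 replicate 3, 50.58% with a pseudocount of 0.1, 47.87% after quantile normalization and 65.49% with voom on recovered reads. Voom moved the median of all genes from a log2 fold change of -0.06 to 0.25. No gene called here was called in the opposite direction under any of these scalings. Because the libraries are of bulk cells, fewer cells of a type and less RNA per cell cannot be told apart in any change below.

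**Figure D2:**
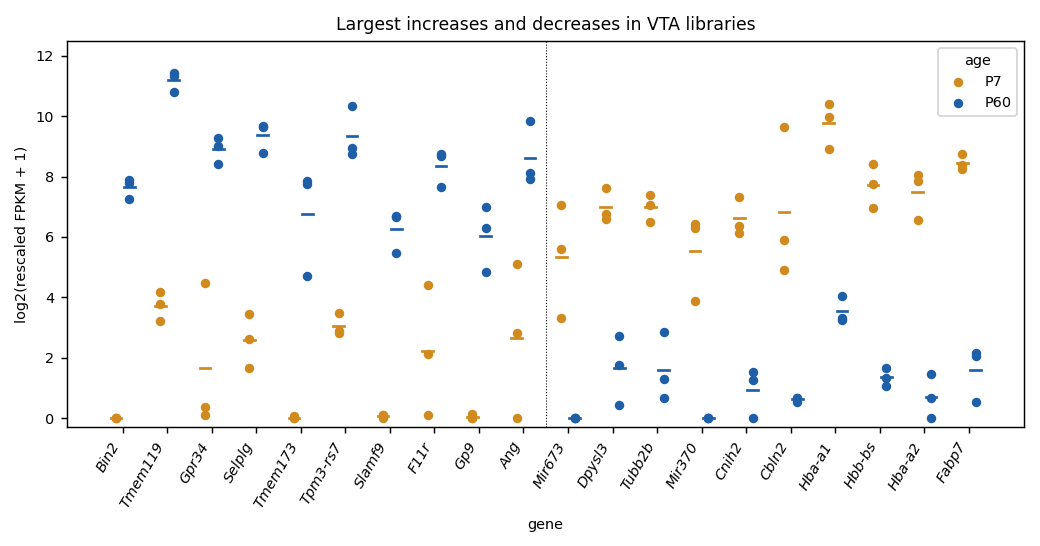
The 10 largest increases (left) and 10 largest decreases (right) among genes that passed the test and whose groups do not overlap, as log2 of the rescaled FPKM plus 1; points are the 3 P7 and 3 P60 libraries and bars their means. Bin2 lies at 0 in each P7 library, and Mir370 and Mir673 at 0 in each P60 library.

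The largest increases were led by genes of myeloid cells and microglia. Bin2, a BAR-domain protein of phagocytic cells encoded at chr15:100641077-100669553 (minus strand, GRCm38), was at 0, 0 and 0 at P7 and at 219.7, 151 and 236 at P60. Against a floor of 3 reads per library the P60 mean is at least 1721-fold higher (adjusted p = 9.25e-06). Tmem119 was at 8.36, 16.9 and 12.8 in the P7 libraries and at 2782, 1786 and 2586 in the P60 libraries (log2 fold change 7.47 ± 0.62 (SE), adjusted p = 9.63e-08). Tmem119 is a membrane protein that marks resident microglia, and its lowest P60 library exceeded its highest P7 library by a wide margin. Selplg, the ligand of P-selectin, had values of 2.19, 5.14 and 9.97 at P7 and 823, 442 and 791 at P60 (log2 fold change 6.79 ± 0.53 (SE), adjusted p = 5.6e-08). Gpr34, a lysophosphatidylserine receptor of microglia that lies inside Cask on the other strand, was at 21.2, 0.0858 and 0.284 and then at 619, 338 and 519 (log2 fold change 7.25 ± 1.02 (SE), adjusted p = 9.83e-05). The P7 libraries were uneven, with replicate 1 high. Tmem173, which encodes the cytosolic DNA sensor adaptor STING, went from 0, 0.039 and 0 to 232, 24.8 and 217 (adjusted p = 0.00285). P60 replicate 2 was the lowest of the adult libraries there.

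The other members of the largest increases were Slamf9 (log2 fold change 6.21), a receptor of the SLAM family, F11r (6.14), a junctional adhesion molecule, Gp9 (5.99), a platelet glycoprotein, Ang (5.99), angiogenin, and Tpm3-rs7 (6.29), a tropomyosin-related gene. Gp9 lost its call without P60 replicate 1 (adjusted p = 0.051, range over the 6 fits without a VTA library 0.0215 to 0.051). Ang shares its locus with Rnase4, and Tpm3-rs7 has near-identical copies, so the reads of both could be split by the counting. Of the 61 genes chosen for naming, 28 overlap another annotated gene, 22 of them a gene on the opposite strand, and SMART-seq2 does not keep strand.

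Genes of resting microglia rose together. Of the 20 listed, all were tested, 16 rose, none fell, and the median log2 fold change was 3.06, beside -0.06 over all genes. The called share of the list was 80%, beside 9.98% of all genes. In each P7 library the median level of the list on log2(value + 1) was 5.19, 5.44 and 5.56, and in each P60 library it was 8.69, 7.70 and 8.75. All 3 adult libraries were above all neonatal ones, and P60 replicate 2 was the lowest adult library. Among the receptor genes P2ry12, an ADP receptor that steers microglial processes, was at 36.8, 58.7 and 42 at P7 and at 1900, 1202 and 1832 at P60 (adjusted p = 0.000791). The fractalkine receptor gene Cx3cr1 was at 34, 37.9 and 42.7 and then at 426, 191 and 456 (adjusted p = 0.00237). P2ry13, a related purinergic receptor, had 23.7, 16.7 and 23.1 at P7 and 302, 114 and 297 at P60 (adjusted p = 0.0117). Itgam, the CD11b integrin chain, was at 0, 3.7 and 4.12 and then at 21.6, 19.9 and 15.3 (adjusted p = 0.024). In each of these receptor genes the groups did not overlap.

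The complement genes started from a higher level. C1qb, a chain of the first complement component, was at 836, 1175 and 1191 at P7 and at 7256, 4208 and 7101 at P60 (log2 fold change 2.51 ± 0.40 (SE), adjusted p = 0.000308). C1qa (2.53 on the log2 scale) and C1qc (2.21) rose as well. The microglial transcription factor gene Sall1 had 0.345, 1.04 and 0 at P7 and 11.4, 15.2 and 12.4 at P60 (adjusted p = 0.0127). Other members that rose included Slc2a5 (4.76), Olfml3 (3.16), Aif1 (2.31) and Trem2 (1.96). The 4 that did not pass were Csf1r, Siglech, Sparc and Fcrls. Fcrls was lower at P60, with 439.8, 343 and 366 at P7 and 88.9, 19.4 and 130.1 at P60 (adjusted p = 0.104), and it passed as lower without P30 replicate 3.

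Promoters are printed for 3 of the risen genes, to show sequence beside a set of genes that moved together. PU.1, the transcription factor that myeloid cells depend on, binds a core of GAGGAA, which was searched on both strands in the RefSeq promoters (GRCm38.p6, 250 bases before to 50 after the start). Of the 16 risen microglial genes 11 had a promoter in that table, and 6 of these held the motif, beside 28.3% of all 32851 promoters. A gene was counted if any of its promoters held the motif, while the share is over single promoters. The count and the share are therefore not on the same basis, and no enrichment is read from them. A match is a description of letters and not a binding site. Capitals mark the motif or its reverse complement, and each sequence is read 5′ to 3′ on the strand of the gene. C1qb lies at chr4:136886151-136886450 (minus), P2ry13 at chr3:59210833-59211132 (minus) and Itgam at chr7:128062390-128062689 (plus).
C1qb: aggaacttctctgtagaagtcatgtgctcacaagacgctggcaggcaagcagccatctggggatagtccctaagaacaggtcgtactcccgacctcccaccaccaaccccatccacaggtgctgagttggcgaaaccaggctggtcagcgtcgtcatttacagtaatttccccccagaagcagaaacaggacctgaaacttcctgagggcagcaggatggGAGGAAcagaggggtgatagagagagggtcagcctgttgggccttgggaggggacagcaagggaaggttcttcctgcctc
P2ry13: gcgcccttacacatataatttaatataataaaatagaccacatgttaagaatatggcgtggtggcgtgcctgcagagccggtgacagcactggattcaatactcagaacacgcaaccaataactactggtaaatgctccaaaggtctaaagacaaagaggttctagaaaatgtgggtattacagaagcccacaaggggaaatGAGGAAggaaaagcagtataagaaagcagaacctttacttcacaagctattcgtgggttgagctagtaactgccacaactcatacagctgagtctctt
Itgam: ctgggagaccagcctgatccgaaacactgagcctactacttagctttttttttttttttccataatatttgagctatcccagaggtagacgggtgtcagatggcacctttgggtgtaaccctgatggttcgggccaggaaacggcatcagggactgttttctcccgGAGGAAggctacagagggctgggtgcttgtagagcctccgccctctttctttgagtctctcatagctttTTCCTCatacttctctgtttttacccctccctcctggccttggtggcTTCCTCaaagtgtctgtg
C1qb and P2ry13 held the motif once, as written. Itgam held it once as written and 2 times as its reverse complement. The other genes with the motif were Trem2, Aif1 and C1qc, and those without it in this window were Olfml3, Slc2a5, Sall1, P2ry12 and Cx3cr1.

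In other myeloid lists fewer members passed, between 0% and 20% of those tested, beside 9.98% of all genes. Of 24 lysosome and phagocytosis genes 4 rose and none fell (median 1.00), and 9 rose without P30 replicate 3. Ctss was at 461, 464 and 572 in the P7 libraries and at 8410, 4597 and 8127 in the P60 libraries, without overlap; it encodes the protease cathepsin S (log2 fold change 3.77 ± 0.45 (SE), adjusted p = 1.29e-05). Others that rose included Cd68 and Ctsz, cathepsin Z, which has a neighbour on the opposite strand. Ctsz had 499, 491 and 776 at P7 and 1937, 2056 and 1987 at P60. In the list of young and disease-associated microglia, 1 of 18 members passed, Apoe, which fell (median of the list 0.07). There 2 rose without P7 replicate 3, 1 rose and none fell without P60 replicate 2, none passed without P7 replicate 1, and 1 rose and 2 fell without P30 replicate 3. In the inflammatory chemokine and cytokine list 0 of 15 passed (median -0.15; limma, with 2 at an unadjusted p under 0.05 and 1 with voom). In that list 1 fell without P7 replicate 3 and 1 rose without P30 replicate 3. The interferon response list had 2 of 16 that rose, 4 without P60 replicate 2 or P30 replicate 3, and 1 without P7 replicate 3, P60 replicate 1 or P60 replicate 3. Irf7, a regulator of interferon genes, was at 0.0241, 0.0475 and 0 at P7 and at 19.5, 50.6 and 20.5 at P60 (adjusted p = 0.00115), and Isg15 had no read at P7. Of 10 class I antigen presentation genes 2 rose, H2-K1 (3.65 on the log2 scale) and Tapbp (2.21), and 4 rose without P30 replicate 3. Among 15 border and blood macrophage genes tested, Stab1 rose (1.89) and Lyve1 fell (-3.42). The first call was lost without any 1 of the P7 and P60 libraries other than P7 replicate 2, the second without P7 replicate 1, P7 replicate 2 or P60 replicate 1, and 3 rose without P30 replicate 3.

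**Figure D3:**
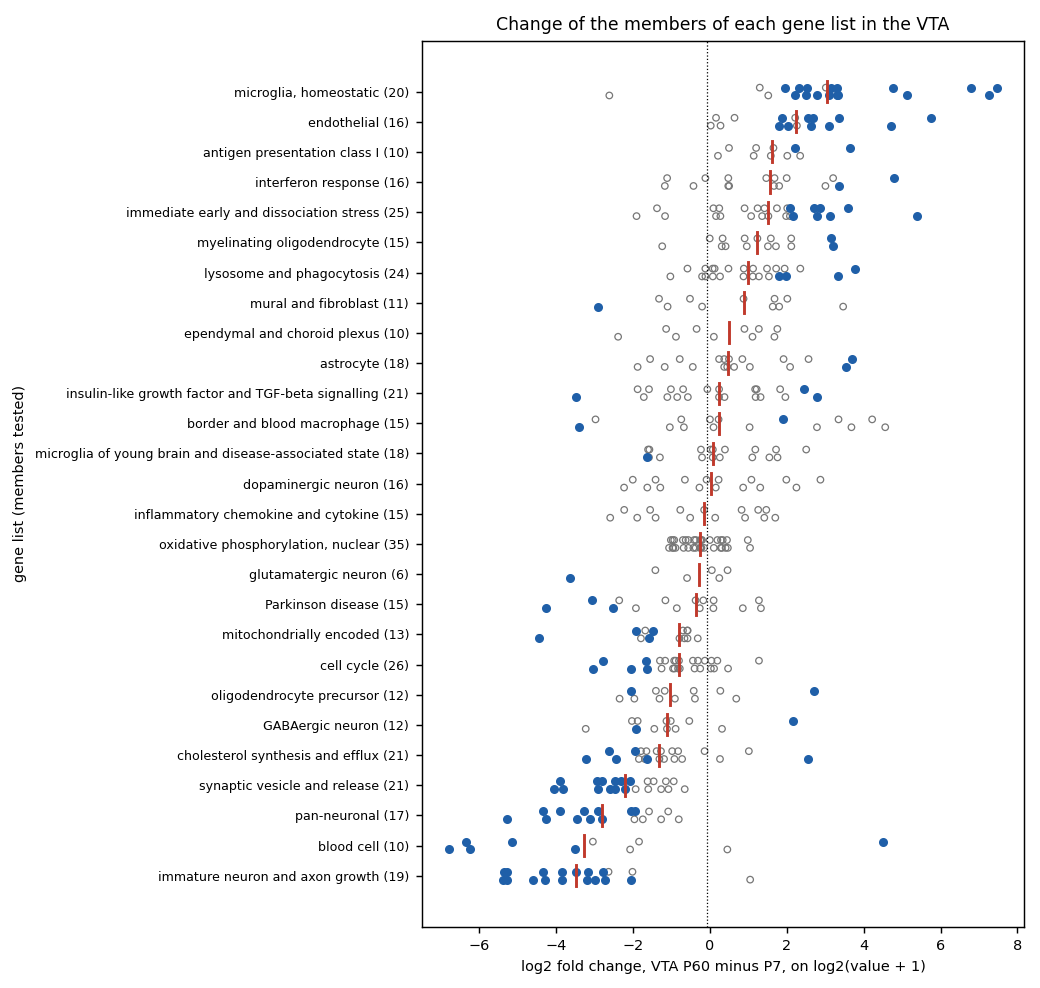
Log2 fold change, P60 minus P7, of each tested member of the 27 gene lists; filled points passed the test at an adjusted p under 0.05, red bars are list medians and the dotted line is the median of all genes. Resting microglia lie at the top with 16 of 20 filled and immature neurons at the bottom with 16 of 19.

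Genes of growing neurons fell. Of 19 genes of immature neurons and axon growth, 16 fell and none rose, with a median log2 fold change of -3.50. The called share of the list was 84.21%, beside 9.98% of all genes. The list's median level was 6.75, 7.48 and 6.51 in the P7 libraries and 2.84, 2.72 and 2.15 in the P60 libraries, so the lowest neonatal library was above every adult one. Stmn2, which regulates microtubules in growth cones, was at 107, 178 and 67.5 at P7 and 1.76, 0.957 and 3.16 at P60 (log2 fold change -5.28 ± 0.60 (SE), adjusted p = 9.25e-06). Crmp1, a collapsin response mediator of axon guidance, was at 50.4, 95.3 and 37.1 and then at 0.0866, 0.838 and 0.589 (log2 fold change -5.29 ± 0.52 (SE), adjusted p = 1.42e-06). Its relative Dpysl3 was at 106, 198 and 95.2 and then at 0.365, 5.58 and 2.4 (log2 fold change -5.35 ± 0.65 (SE), adjusted p = 1.48e-05). No P60 value of these 3 genes came near a P7 value. Dcx, doublecortin of migrating neurons, had 11.6, 7.58 and 10.8 at P7 and 0.139, 0.00718 and 0.439 at P60 (adjusted p = 3.07e-05). Gap43, the growth cone phosphoprotein, had 496, 1091 and 297 and 21.7, 12.7 and 36.2 (adjusted p = 0.0021). The tubulin gene Tubb2b was at 132, 166 and 88.8 and then at 6.15, 0.594 and 1.43. The 3 members that did not pass were Stmn1, Cd24a and Marcks. Marcks was higher in each P60 library (1.05 on the log2 scale, adjusted p = 0.193).

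Genes of synapses and of neurons at large fell too. Of 21 synaptic vesicle genes 12 fell and none rose (median -2.22). Of 17 pan-neuronal genes 11 fell and none rose (median -2.80). The called shares of the synaptic and pan-neuronal lists were 57.14% and 64.71%, beside 9.98% of all genes. Both lists share Syn1, Syp, Syt1 and Snap25. Syn1, the vesicle phosphoprotein synapsin, was at 43.2, 68.7 and 23.5 at P7 and at 2.98, 0 and 4.7 at P60 (log2 fold change -3.90 ± 0.66 (SE), adjusted p = 0.00063). Syt4, a synaptotagmin, had 70.7, 43.7 and 42.9 and 3.25, 0.0233 and 5.84 (adjusted p = 0.00118). Pclo, the active zone scaffold piccolo, had 7.51, 6.94 and 7.76 and 0.985, 0.00809 and 1.39 (adjusted p = 0.00129). In these genes P60 replicate 2 was the lowest adult library, and the ages did not overlap. Snap25, a vesicle fusion protein, was at 40.2, 49.7 and 37.8 at P7 and 11.7, 33.4 and 12.2 at P60 and did not pass (adjusted p = 0.234). Among transmitter genes, Slc17a6, the vesicular glutamate transporter of the midbrain, fell from 67.5, 38.5 and 28.7 to 2.23, 1.9 and 3.54 (adjusted p = 0.00115), and it was the only called member of 6 glutamatergic genes tested. Of 12 GABAergic genes Dlx1 fell (-1.93) and Tal1 rose (2.15), a called share of 16.67% in both transmitter lists beside 9.98% of all genes. The count lower was 0 without P7 replicate 3 and the count higher 0 without P60 replicate 3, and 2 glutamatergic genes fell without P7 replicate 2 or P30 replicate 3. The summed level of the 17 pan-neuronal genes was 1075 to 2066 at P7 and 116.1 to 155.4 at P60, while that of resting microglia was 3992 to 4354 and 18558 to 30708. Whether a changed mix of sorted cells has a part in these differences was not tested.

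**Figure D4:**
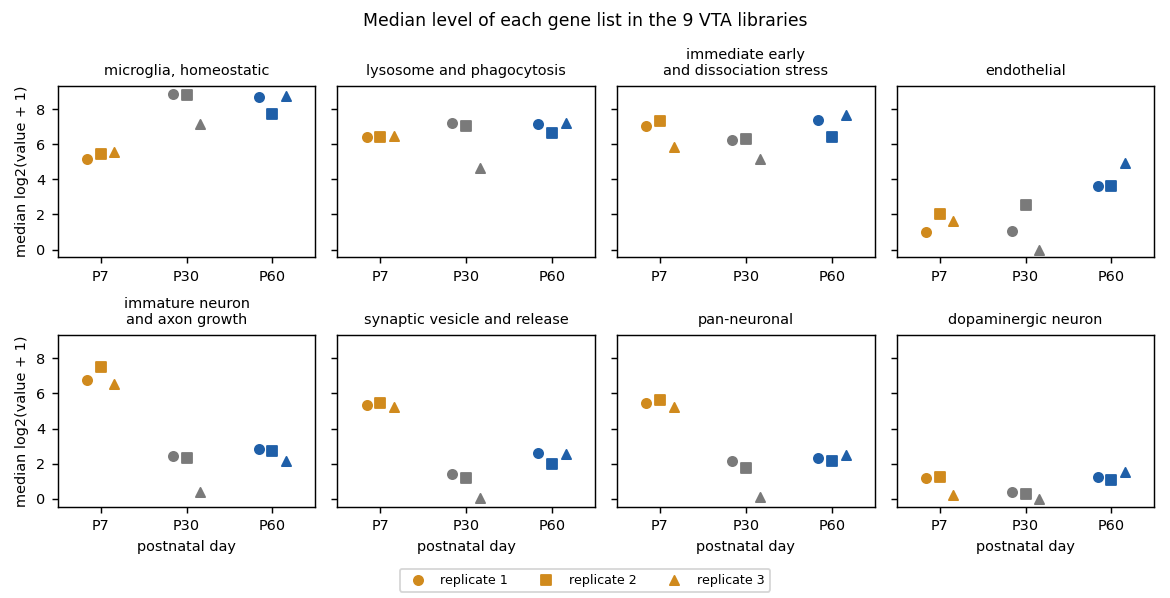
Median log2(value + 1) of 8 gene lists in each of the 9 VTA libraries by age, with marker shape for the replicate number. Resting microglia are higher and the immature neuron, synaptic and pan-neuronal lists lower in all 3 P60 libraries than in all 3 P7 libraries, and P30 replicate 3 lies below the other P30 libraries and all P60 libraries in all 8 lists.

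Among the largest decreases were genes of other kinds. Fabp7, a fatty acid binding protein of radial glia and young astrocytes (chr10:57784881-57788450, plus strand, GRCm38), was at 431, 304 and 332 at P7 and at 3.48, 0.436 and 3.19 at P60 (log2 fold change -6.88 ± 0.67 (SE), adjusted p = 1.38e-06). Cbln2, a secreted synapse organizer, was at 29.3, 806 and 58 and then at 0.58, 0.597 and 0.46 (adjusted p = 0.000354), with P7 replicate 2 far above the other two. Cnih2, an auxiliary subunit of AMPA receptors, had 82.1, 160.0 and 69.6 and 1.42, 0 and 1.9 (adjusted p = 9.45e-06). The haemoglobin genes fell steeply. Hba-a1 went from 477, 1367 and 1015 to 15.4, 9.06 and 8.48 and Hbb-bs from 123, 338 and 217 to 1.09, 2.13 and 1.53, and Hba-a2 and Hbb-bt fell as well. Hba-a1 and Hba-a2 are near-identical copies. Of 10 blood cell genes tested 5 fell, the fifth being Alas2, which makes haem in red cells, and Cd79b of B cells rose (4.50 on the log2 scale). The called share of the list was 60%, beside 9.98% of all genes.

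Mir370 and Mir673, 2 microRNA genes of the imprinted Dlk1-Dio3 region, had reads at P7 and none at P60. Mir673 was at 8.98, 132 and 47.9 at P7, and the mean of these is at least 21.03-fold above the floor of 3 reads per library (adjusted p = 0.00158). Mir370 was at 78.2, 13.6 and 85.3, with a mean at least 17.1-fold above its floor (adjusted p = 0.000237). Single P7 libraries lay nearer the floor, with 9 reads of Mir673 in replicate 1 and 12 of Mir370 in replicate 2. Mir370 lies inside the long RNA Rian, and both are counts over hairpin genes, since SMART-seq2 does not capture mature microRNAs. The mature sequences of both, from RefSeq (GRCm38.p6), are given 5′ to 3′ with the seed, bases 2 to 8, in capitals, to show which products the genes encode.
mmu-miR-673-5p: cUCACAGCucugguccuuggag
mmu-miR-673-3p: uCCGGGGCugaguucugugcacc
mmu-miR-370-5p: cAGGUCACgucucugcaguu
mmu-miR-370-3p: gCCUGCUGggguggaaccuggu
The 4 seeds differ from each other. The hairpins lie on chromosome 12, with miR-673-5p at chr12:109572004-109572025 and miR-370-5p at chr12:109618270-109618289, both on the plus strand.

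Endothelial markers rose with age. Of 16 endothelial genes 10 rose and none fell (median 2.24, with 62.5% of the list called beside 9.98% of all genes). This count was 4 without P7 replicate 1, 5 without P7 replicate 2, 6 without P60 replicate 1, 5 without P60 replicate 3 and 4 with a pseudocount of 0.1. Bsg was at 458, 380.0 and 574 in the P7 libraries and at 1308, 2031 and 1876 in the P60 libraries; it encodes basigin (log2 fold change 1.88 ± 0.37 (SE), adjusted p = 0.00189). Ly6a, an antigen of brain endothelium, was at 0, 0 and 0 at P7 and at 70.8, 21.4 and 97.7 at P60. Its P60 mean is at least 257-fold higher against the floor of 3 reads. Car4, a carbonic anhydrase of capillaries, had 0, 0.0456 and 3.33 and 25.7, 51.9 and 55.8 (adjusted p = 0.0086). The junction gene Cldn5 had 53.6, 32.4 and 78.2 and 223, 174 and 405, and it did not pass (adjusted p = 0.204). The list's summed level was 462.8 to 757.7 at P7 and 1933 to 2954 at P60. Bsg alone made up most of this sum in each of these libraries, so the sum says little of the other members.

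The lists of other glia had shares of called genes of 11.11% for astrocytes, 13.33% for myelin and 16.67% for oligodendrocyte precursors, beside 9.98% of all genes tested, and are given by their members only. Of 18 astrocyte genes 2 rose and none fell (median 0.47), and 5 rose and 1 fell without P30 replicate 3. Glul, glutamine synthetase, was at 44, 25.4 and 28.1 at P7 and at 394, 369 and 373 at P60 (log2 fold change 3.54 ± 0.40 (SE), adjusted p = 8.54e-06), and the connexin gene Gjb6 rose by 3.70 on the log2 scale. Of 15 myelin genes 2 rose, Mbp (3.21) and Mag (3.14), and 1 fell without P7 replicate 2. Mbp, myelin basic protein, had 17.2, 4.56 and 18.7 at P7 and 130.2, 86.9 and 135 at P60. Of 12 oligodendrocyte precursor genes Neu4 rose (2.72) and Pdgfra fell (-2.06). The count of risen precursor genes was 0 without any 1 of the P7 libraries, P60 replicate 1 or P60 replicate 2, and that of fallen ones 0 without P7 replicate 1, P7 replicate 3 or any 1 of the P60 libraries and 3 without P30 replicate 3. Of 11 mural and fibroblast genes tested Col1a1 fell (-2.91), a count of 0 without P7 replicate 3 or P60 replicate 2. Of 10 ependymal and choroid plexus genes 0 passed (median 0.50; limma, with 1 at an unadjusted p under 0.05 and 0 with voom).

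Of 25 immediate early and dissociation stress genes, which cells switch on within minutes of stimulation or tissue handling, 8 rose and none fell (median 1.52). The called share of the list was 32%, beside 9.98% of all genes. The count was 3 without P7 replicate 1, 4 without P60 replicate 1 and 5 without P60 replicate 3, and it was 13 without P30 replicate 3, 14 on the deposited scale without that library and 15 with voom. Hspa1a was at 2.57, 0.0302 and 1.14 in the P7 libraries and at 91.9, 54.7 and 109.5 in the P60 libraries; it encodes a heat shock protein (log2 fold change 5.38 ± 0.87 (SE), adjusted p = 0.000412). Dusp1, a phosphatase of MAP kinases, was at 318, 448 and 163 and then at 3601, 2990 and 3826 (log2 fold change 3.59 ± 0.80 (SE), adjusted p = 0.00551). Jun, a subunit of AP-1, had 289, 318 and 254 and 2419, 1339 and 2366 (adjusted p = 0.0201). In these 3 genes the ages did not overlap. Fos, its partner, had 653, 519 and 332 and 2243, 548 and 2166, overlapping at P60 replicate 2 (adjusted p = 0.113). Klf2 rose by 2.87 and lost its call without P7 replicate 1 (adjusted p = 0.067, range over the 6 fits without a VTA library 0.0049 to 0.067). The list's summed level was 3597 to 5002 at P7 and 12740 to 18817 at P60, and it moved in the same direction as the microglial, lysosomal and endothelial lists. The part of tissue handling in those increases was not tested.

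Of 26 cell cycle genes 5 fell and none rose (median -0.82, with 19.23% of the list called beside 9.98% of all genes). The count was 3 without P7 replicate 1, 1 without P7 replicate 2 and 2 without any 1 of the P60 libraries. Ccna2, cyclin A2, was at 10.2, 5.67 and 6.53 at P7 and had no read at P60. Its P7 mean is at least 112-fold above the floor of 3 reads (adjusted p = 0.000371). Mki67, the proliferation antigen Ki-67, had 1.14, 4.12 and 1.91 at P7 and no read at P60, and its call was lost without P7 replicate 2 (adjusted p = 0.0533, range over the 6 fits without a VTA library 0.00697 to 0.0533). Cdca3 had 0, 23.1 and 12.3 at P7, so that the ages overlapped at 0, and its call was lost in 5 of the 6 fits without a VTA library (adjusted p, range over the 6 fits without a VTA library 0.000253 to 0.149). The others were Nusap1 (-1.65) and Rrm2 (-2.04).

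Of 21 cholesterol genes 5 fell and 1 rose (median -1.32, with 28.57% of the list called beside 9.98% of all genes). The lower count was 3 without P7 replicate 1 or P60 replicate 1 and 2 without P60 replicate 2, and the higher count was 0 without any 1 of the P7 and P60 libraries other than P7 replicate 2. Hmgcs1, an early enzyme of the synthesis pathway, was at 87.3, 48.1 and 63.7 at P7 and at 7.46, 6.09 and 4.58 at P60 (log2 fold change -3.24 ± 0.54 (SE), adjusted p = 0.000507). The later enzymes Cyp51 (-2.63), Lss (-2.45) and Fdps (-1.96) fell, as did the lipid carrier Apoe, with 6032, 3132 and 2835 at P7 and 1463, 772 and 1558 at P60. The call of Cyp51 was lost without P60 replicate 2 (adjusted p = 0.0598, range over the 6 fits without a VTA library 0.00963 to 0.0598). That of Apoe was lost without P60 replicate 2 or P7 replicate 1 (adjusted p = 0.0911 and 0.0961, range over the 6 fits without a VTA library 0.0202 to 0.0961). Nr1h3, the LXR-alpha sterol receptor, rose by 2.55. Of 21 growth factor genes of the IGF and TGF-beta pathways 2 rose and 1 fell (14.29% of the list, beside 9.98% of all genes; median 0.24), and 4 rose and 2 fell without P30 replicate 3. Tgfbr1, a TGF-beta receptor, was at 1.13, 2.68 and 7.2 and then at 23.4, 23.9 and 16.4 (adjusted p = 0.00477). The inhibitory Smad7 rose by 2.77, a call lost without P7 replicate 1, P7 replicate 3 or P60 replicate 1 (adjusted p = 0.0529 to 0.0796, range over the 6 fits without a VTA library 0.00605 to 0.0796). Igfbp2, which binds insulin-like growth factors, fell from 179.9, 102 and 97.7 to 7.81, 16 and 7.71 (adjusted p = 0.00485).

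Mitochondrially encoded transcripts took 18.9%, 13.2% and 21.7% of the reads in genes at P7 and 9.78%, 11.3% and 10.02% at P60. Of 13 such genes 4 fell and none rose (median -0.79, with 30.77% of the list called beside 9.98% of all genes), and 7 fell without P30 replicate 3. mt-Nd1 was at 27910, 19268 and 32812 in the P7 libraries and at 7922, 5390 and 7691 in the P60 libraries; it encodes a subunit of complex I (log2 fold change -1.92 ± 0.38 (SE), adjusted p = 0.00203). mt-Nd5, which overlaps mt-Nd6 on the other strand, had 1898, 1149 and 2265 and 512, 626 and 574 (adjusted p = 0.00931). Of 35 nuclear genes of oxidative phosphorylation, 0 passed (median -0.25; limma, with 1 at an unadjusted p under 0.05 and 0 with voom). Of 15 Parkinson disease genes 3 fell and none rose (median -0.37, with 20% of the list called beside 9.98% of all genes). The count was 1 without P60 replicate 2 and 5 without P30 replicate 3. Uchl1, a ubiquitin hydrolase abundant in neurons, was at 152, 253 and 119 and then at 17.2, 1.45 and 13.5 (log2 fold change -4.27 ± 0.83 (SE), adjusted p = 0.00187). Atp13a2 (-3.06) and Dnajc6 (-2.53) fell too, and both calls were lost without P60 replicate 2 (adjusted p = 0.0508, range over the 6 fits without a VTA library 0.0128 to 0.0508, and 0.0553, range over the 6 fits without a VTA library 0.00868 to 0.0553).

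The change with age was then set against the same change in the other regions, with 3 P7 and 3 P60 libraries each and none shared with the VTA. The difference between the VTA and NAc changes passed the test in 2503 genes (13.3%), with the VTA change above that of NAc in 1146 and below it in 1357. Between VTA and SNc it passed in 73 genes (0.386%), a count that was 191 without P30 replicate 3. It was 46 to 130 over fits without 1 VTA library. Of the 20 genes of resting microglia, 14 had a VTA change above that of NAc, beside 13.3% of all genes in either direction. By limma 0 of the 20 differed from SNc, beside 0.386% of all genes. Against SNc 4 had an unadjusted p under 0.05 and 1 passed with voom. With so low a share over all genes, a count of 0 in a short list does not show that VTA and SNc changed alike. The list's median log2 fold change was 3.06 in VTA, -0.60 in NAc and 2.36 in SNc. Tmem119 in NAc was at 212 ± 12.9 at P7 and 575 ± 282 at P60 (SD, n = 3), and in SNc at 42.6 ± 15.1 at P7 and 1897 ± 432 at P60. Its VTA change exceeded that of NAc by 6.19 ± 0.88 (SE) on the log2 scale (adjusted p = 0.000228). Against SNc the difference was 2.00 ± 0.88 (adjusted p = 0.407).

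The synaptic and neuronal lists went the other way relative to NAc. Over all 18888 genes tested, the VTA change was above that of NAc in 1146 and below it in 1357, together 13.3%. Of 21 synaptic genes 17 had a VTA change below that of NAc, with medians of -2.22 in VTA and 1.25 in NAc. Of 17 pan-neuronal genes 16 did, with medians of -2.80 in VTA, 1.82 in NAc and -0.80 in SNc. Syn1 differed from NAc by -5.72 ± 0.94 (adjusted p = 0.000584), and Meg3, a neuronal long RNA, by -5.35 ± 0.85 (adjusted p = 0.00044). Of either list 0 members differed from SNc by limma, beside 0.386% of all genes, and 0 with voom. Against SNc 3 synaptic and 2 pan-neuronal genes had an unadjusted p under 0.05. Of 19 immature neuron genes 10 had a VTA change below that of NAc, with medians of -3.50 in VTA, -0.80 in NAc and -2.23 in SNc. Of 18 astrocyte genes 11 had a VTA change below that of NAc, with medians of 0.47 in VTA, 3.42 in NAc and 2.38 in SNc. In the immature neuron and astrocyte lists 0 members differed from SNc by limma or with voom. By limma 4 and 7 of them had an unadjusted p under 0.05 against SNc. In the stress list 15 of 25 were above NAc and 1 below, with medians of 1.52 in VTA, -1.81 in NAc and -0.31 in SNc. Of 26 cell cycle genes 16 had a VTA change above that of NAc, and 5 of 15 chemokine genes a VTA change above that of NAc. Both lists had a larger median fall in NAc and no median rise in VTA. Cell cycle medians were -0.82 in VTA, -3.75 in NAc and -2.26 in SNc, from P7 list levels of 0.82 in VTA and 4.24 in NAc. Chemokine medians were -0.15 in VTA, -4.85 in NAc and -3.37 in SNc. For the endothelial list 0 of 16 members differed from NAc or from SNc, beside 13.3% and 0.386% of all genes. The list's medians were 2.24 in VTA, 2.66 in NAc and 3.14 in SNc. By limma 1 of its members had an unadjusted p under 0.05 against NAc and 2 against SNc, and with voom 0 and 1 passed.

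**Figure D5:**
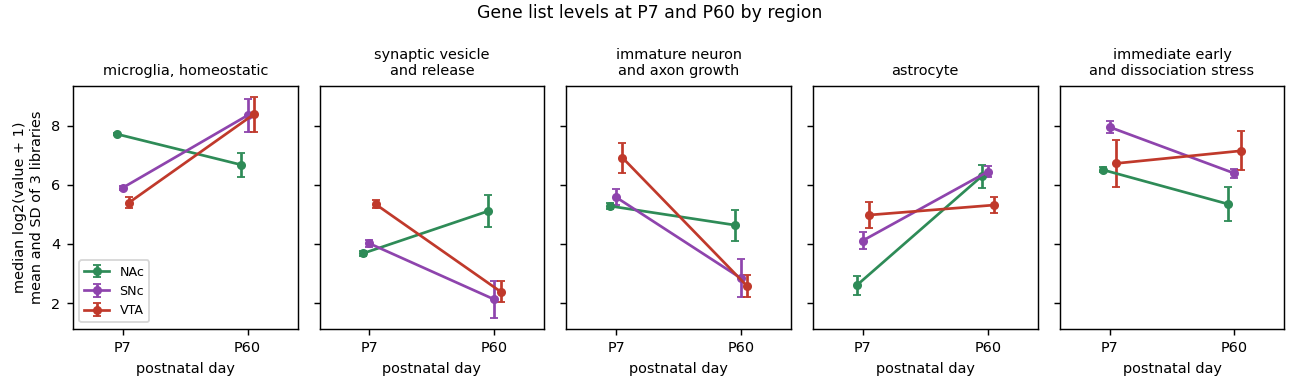
Median log2(value + 1) of 5 gene lists at P7 and P60 in each region; points are means and bars SDs over 3 libraries, and colours mark NAc, SNc and VTA. The VTA and SNc lines nearly coincide for resting microglia at P60 (8.38 and 8.35), where NAc lies at 6.67.

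A few genes changed in the VTA and differed from SNc. Rab33a, a small GTPase of vesicle traffic, was at 16.6, 15.7 and 19 in VTA at P7 and at 0.395, 0 and 0 at P60 (adjusted p = 0.00014). In SNc it was at 3.35 ± 2.07 at P7 and 8.85 ± 7.27 at P60, a difference in change of -5.05 ± 0.83 (adjusted p = 0.00351). Zc3h12a, a ribonuclease that degrades cytokine transcripts, was at 0.725, 0.405 and 0.0688 and then at 24.5, 6.78 and 25 in VTA, and at 39.5 ± 6.52 at P7 and 8.2 ± 3.23 at P60 in SNc. Its difference was 5.84 ± 1.14 (adjusted p = 0.0164), lost without P60 replicate 3 (adjusted p = 0.0561, range over the 6 fits without a VTA library 0.0118 to 0.0561). Mbp, chosen after its values were seen, rose in VTA by 3.21 and in SNc, where it was at 7.31 ± 2.27 at P7 and 1785 ± 422 at P60, by 7.76. That difference was -4.55 ± 0.74 (adjusted p = 0.00351).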

How the data were processed

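RNA of sorted cells was sequenced in 27 libraries, 3 in each of 9 groups of region and age. The deposited values are FPKM per gene, aligned with HISAT2 to GRCm38/mm10 per the submitters' processing notes; the read counter was not given in the sources used here. VTA P30 replicate 3 was deposited as a score in another unit, proportional to FPKM, and it enters the fit after rescaling. Whole reads were recovered from FPKM times gene length (100% of low values whole within a tolerance of 0.02), for an alternative test.

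The deposited table lacks the letter M and its name column is shifted, so symbols were taken by gene ID for 54409 of 54532 genes. Of the IDs, 53585 have the start and end of GENCODE M21. Each library was divided by its sum of FPKM times length in kilobases and multiplied by 1000000, on which scale values are rescaled FPKM. A gene entered the test with a value of 1 or more in 3 libraries or more, which left 18888. One linear model over the 27 libraries, with 1 term per group, used log2(value + 1) in limma 3.58.1 (R 4.3.3, statmod 1.5.0). It used eBayes with trend and robust, Benjamini-Hochberg adjustment and a threshold of 0.05. The fit was first checked on simulated data. Each simulated gene had the same spread in all groups, so the check does not cover groups of unequal spread. Fold changes on log2(value + 1) understate low genes. The reported p-values and SEs rest on a spread pooled over all groups, while the libraries were unequally variable. Estimated library weights, higher for steadier libraries, were 4.93 to 5.68 in NAc P7 and 0.331 to 0.595 in VTA P7. In VTA P60 replicates 1, 2 and 3 they were 2.26, 0.36 and 2.2. Python 3.11.15, numpy 2.4.6, pandas 2.3.3 and matplotlib 3.10.9 did the rest.

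Named genes were those past the threshold, with groups that do not overlap and a mean of at least 5, with the 10 largest increases and 10 largest decreases; the 3 smallest adjusted p of each list with at least 3 called members; 5 dopaminergic genes; and the 5 largest differences from each other region. The differences were ranked among genes past the threshold of both the VTA comparison and the difference, with a mean of at least 5. Predicted genes, RIKEN clones and pseudogenes were left out. Further list members were named after their values were seen. Some members counted in the lists are not reported here by name. The comparison and the gene lists were chosen with earlier results of these data known. The alternatives were the deposited scale (without VTA P30 replicate 3), quantile normalization, voom on recovered reads, a pseudocount of 0.1, other filters, the compared libraries alone, the replicate block, library weights and fits without each library. Intervals for depth were not computed, and floors of 3 reads cover counting error only.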

Additional observations from a re-analysis of the deposited data

Results flagged for a closer look

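The results below are those where the change with age in the VTA differed from that in another region, by limma's test of the difference itself. Between VTA and NAc this held for 2503 genes, and between VTA and SNc for 73. Ranked here are only those that also passed the test of VTA P60 against P7. They also had a mean of at least 5 over those 6 libraries, and predicted genes, RIKEN clones and pseudogenes were left out. Genes that changed in the other region alone were therefore not ranked. Among the ranked genes the 5 with the largest differences from NAc, on the log2 scale with their SE, were Slamf9 with 8.18 ± 1.85 (adjusted p = 0.00541), Bin2 with 8.15 ± 1.24 (adjusted p = 0.000343), Grap with 7.98 ± 1.90 (adjusted p = 0.00762), Dhx58 with 7.83 ± 1.08 (adjusted p = 0.000195) and Batf with 7.81 ± 1.59 (adjusted p = 0.0026). Grap is an adaptor of immune receptor signalling. It was at 0.0507, 11.3 and 0.111 in VTA at P7 and at 93.4, 133 and 152 at P60, against 33.9 ± 0.557 at P7 and 15.4 ± 20.9 at P60 in NAc (SD, n = 3). Batf, an AP-1 factor of immune cells, was at 15.2, 0.0638 and 0 and then at 37.6, 34.6 and 23.7 in VTA, a change whose own call was lost in 5 of the 6 fits without a VTA library (adjusted p = 0.0731 to 0.152, range over the 6 fits without a VTA library 0.00785 to 0.152). In NAc Batf was at 17.6 ± 2.77 at P7 and 0.0392 ± 0.0344 at P60. Dhx58, an RNA sensor of the interferon response, had no read in any VTA library at P7 and 14.3, 44.9 and 14.4 at P60. Its P60 mean in VTA is at least 270.1-fold higher against the floor of 3 reads. In NAc it was at 12.1 ± 2.18 at P7 and 0.34 ± 0.588 at P60.

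Among genes ranked under the same limits, the 5 largest differences from SNc were Zc3h12a with 5.84 ± 1.14 (adjusted p = 0.0164), Rab33a with -5.05 ± 0.83 (adjusted p = 0.00351), Dhx58 with 4.81 ± 1.08 (adjusted p = 0.043), Slc16a10 with 4.59 ± 0.89 (adjusted p = 0.0162) and Fabp7 with -4.58 ± 0.94 (adjusted p = 0.0244). Slc16a10, an aromatic amino acid transporter, was at 4.72, 2.42 and 0.0269 and then at 10.9, 63 and 14.8 in VTA, with P60 replicate 2 far above the other two. Fabp7 in SNc was at 86.1 ± 10.1 at P7 and 17.1 ± 5.31 at P60. Its difference was lost without VTA P60 replicate 2 (adjusted p = 0.0661, range over the 6 fits without a VTA library 0.0296 to 0.0661). That of Dhx58 was lost in each of the 6 fits without a VTA library (adjusted p = 0.056 to 0.113), and those of Rab33a and Slc16a10 in none of these 6.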

How the results depend on the processing

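Of the 61 named genes, Ddc, which did not pass, changed sign without P7 replicate 3 (-0.41) and without P60 replicate 3 (-0.27), the others did so under no alternative, and 48 to 61 kept their side of the threshold in every setting other than the replicate block. The 678 genes higher at P60 became 1392 on the deposited scale (in each case here also without P30 replicate 3), 1247 with voom on recovered reads, 1080 with library weights, 1134 without P30 replicate 3, 1028 without both it and P60 replicate 2 (a setting chosen after seeing the data) and 277 in a fit of the compared libraries alone. The 1207 lower genes became 657 with voom, 512 with a pseudocount of 0.1 and 265 in the compared libraries alone. Without 1 VTA library they ranged from 434 to 606 and from 680 to 1152. The 2503 differences from NAc became 1328 with the pseudocount of 0.1. The 73 differences from SNc became 207 on the deposited scale, 149 after quantile normalization, 178 with voom, 24 with the pseudocount, 30 with a filter on the VTA libraries, 45 with a filter of 5, 342 with weights, 191 without P30 replicate 3, 188 without both libraries, and 46 to 130 without 1 VTA library. Of the lists, the 12 synaptic genes became 7 with the pseudocount and 6 in the compared libraries alone. The 10 endothelial genes became 4 in each of these, and 4 to 9 without 1 VTA library. The 8 stress genes became 14 on the deposited scale, 15 with voom, 15 with weights, 13 without P30 replicate 3, 14 without both libraries, and 3 to 8 without 1 VTA library. The 0 dopaminergic genes became 2 on the deposited scale, 1 after quantile normalization, 2 with voom, 1 with either filter, 3 with weights, 2 without P30 replicate 3, 1 without both libraries, and 0 to 2 without 1 VTA library. The cause of these shifts was not tested.

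The replicate number was also used as a block, in fits of the compared libraries alone. Without a block those fits had 277 higher and 265 lower genes, 2256 differences from NAc and 91 from SNc. With it, the lists and the VTA comparison had 0 calls by limma in both directions. The lowest adjusted p was 0.0797, and 2977 genes had an unadjusted p under 0.05. The differences from NAc fell to 43 and those from SNc to 0. The block also took degrees of freedom from these fits. In NAc and SNc the P60 libraries are numbered 1, 3 and 4, so not every number has a partner at P7. No pairing by number was seen in the values. Same-numbered libraries of the 2 ages had deviations correlated at 0.0122, -0.0171 and -0.02, and P7 replicates 2 and 3 each correlated best with a P60 library of another number. All such correlations were small, from -0.02 to 0.029, and cannot decide whether the numbers pair the samples. The depth, 3 libraries per age and the low agreement of P60 replicate 2 with the others limit what could be detected for genes near the floor of 3 reads.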

Other observations

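Imprinted genes were looked at after the fall of Mir370, Mir673 and Meg3 had been seen, so they were chosen with their values known and no test is given for them as a group. Rian, the long RNA that hosts Mir370, was at 23.7, 19.3 and 17.3 in the P7 libraries and at 1.24, 0.105 and 1.3 in the P60 libraries (log2 fold change -3.55 ± 0.46 (SE), adjusted p = 3.07e-05, limma). The neighbouring Prader-Willi region genes Ndn and Magel2, from another chromosome, were at 288, 213 and 164 and 9.91, 5.5 and 10.7 at P7, and at 12.9, 1.11 and 14 and 0.511, 0 and 0.0845 at P60 (adjusted p = 0.000938 and 1.03e-05). Peg3, a zinc finger gene expressed from the paternal allele, was at 30.9, 30.1 and 28.8 and then at 4.36, 1.15 and 4.27 (adjusted p = 0.000862). In NAc the change of Peg3 was 1.90 on the log2 scale and in SNc -1.70, beside -2.98 in VTA. Nnat (-2.77), Snrpn (-2.15), Mest (-3.03), Zdbf2 (-1.72), Mkrn3 (-2.36), Usp29 (-1.38) and Asb4 (-2.16) fell too, while Dlk1 (0.86, adjusted p = 0.344) and Mirg (-0.71, adjusted p = 0.483) did not pass. Pan-neuronal transcripts fell over the same libraries, and their part in these values was not tested.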
